A study of Mus musculus with 19 samples.

Results

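The insulin, IGF and FOXO pathway was followed through 10 genes in the corneal epithelium and conjunctiva of mice on calorie restriction (CR) or fed ad libitum (AL). The genes were taken by symbol and comprised the receptors Insr and Igf1r, the docking proteins Irs1 and Irs2, the transcription factors Foxo1 and Foxo3, the ligand Igf1, the binding proteins Igfbp3 and Igfbp5, and the kinase inhibitor Pik3ip1. All 10 were present among the 24557 features of each tissue table, and all 10 passed the filter of a mean of at least 10 normalized counts in both tissues. The filter left 12278 genes to test in the cornea and 13929 in the conjunctiva. There were 19 libraries of bulk RNA: 5 AL and 5 CR from cornea, and 4 AL and 5 CR from conjunctiva.

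All mice were C57BL/6 by the labels, female C57BL/6J by the methods of the study, and were called young in the series' design. The sample titles carry the tag 6M for both diets, which is close to the age in months at which the methods have CR begin, and the tag 50W, which is not spelled out. The study itself describes adult, middle-aged mice that stayed on their diet for months after that age. By its account they were thus older than 6 months when the tissues were taken. The AL mice ate freely, and the CR mice received a ration that was lowered in steps and then given once a day shortly before the dark phase. Thus the hours since the last meal may differ between the diets and cannot be told apart from CR itself. In a cohort of the study, the CR chow was also richer in vitamins and micronutrients than the AL chow. Mice shared pens, and the sample titles give neither cohort nor pen. Chow and pen may therefore also differ between the diets and cannot be told apart from CR. The groups carried no allele or drug. Corneal epithelium was obtained by scraping and conjunctiva by excision, so the conjunctival samples hold stroma, vessels and muscle as well as epithelium. The 2 tissues share 8 of their sample titles, so some mice may have given both tissues, and the p-values measure only the spread between these libraries.

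Insulin and the insulin-like growth factors bind receptor tyrosine kinases, which phosphorylate the docking proteins of the IRS family and thereby recruit phosphoinositide 3-kinase (PI3K). The lipid product of PI3K activates the kinase AKT, which phosphorylates FOXO transcription factors and keeps them out of the nucleus. When insulin or IGF signaling falls, as in fasting, FOXO factors enter the nucleus, and their known targets in other tissues include the genes for the insulin receptor, Irs2 and Pik3ip1. IGF binding proteins hold IGFs outside the cell. In the cornea and conjunctiva, this pathway is known for its part in epithelial growth and wound closure. Much of the control in this pathway lies in phosphorylation and protein location, which RNA levels do not show.

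Of the 10 genes, Irs1 and Irs2 were the pair whose promoters held both an insulin response core, CAAAACA, and an E-box, CACGTG. They are shown here because both genes encode docking proteins, yet their RNA levels lay differently across the tissues. Each sequence is 300 bases, from 250 before to 50 after the start of the gene in the RefSeq table of build GRCm38.p6, read 5′ to 3′ on the strand of the gene, and the capitals mark the motifs found on either strand. The Irs1 window is chr1:82291390-82291689 on the minus strand, and the Irs2 window is chr8:11008880-11009179 on the minus strand.
Irs1: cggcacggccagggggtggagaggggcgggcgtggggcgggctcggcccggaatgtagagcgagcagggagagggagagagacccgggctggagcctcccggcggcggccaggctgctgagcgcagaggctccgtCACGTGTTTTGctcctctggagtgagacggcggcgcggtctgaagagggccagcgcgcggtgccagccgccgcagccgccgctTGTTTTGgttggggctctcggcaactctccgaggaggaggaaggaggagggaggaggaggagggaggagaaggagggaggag
Irs2: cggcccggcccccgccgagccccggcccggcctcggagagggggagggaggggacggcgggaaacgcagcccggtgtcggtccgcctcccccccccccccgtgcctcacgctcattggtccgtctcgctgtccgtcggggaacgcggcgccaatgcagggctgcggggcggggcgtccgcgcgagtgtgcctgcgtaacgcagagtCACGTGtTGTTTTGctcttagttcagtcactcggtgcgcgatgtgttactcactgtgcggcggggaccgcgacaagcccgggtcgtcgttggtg
In the Irs1 window, CACGTG starts 115 bases before the gene start and runs into a TGTTTTG, the reverse complement of CAAAACA, that starts 111 bases before it, so the motifs share letters. A further TGTTTTG starts 32 bases before the Irs1 start. In the Irs2 window, CACGTG starts 44 bases and TGTTTTG 37 bases before the start, with 1 base between them. The table held promoters of 9 of the 10 genes. None of the 9 held GTAAACA, 1 form of FOXO element, on either strand, which 3.65% of all 32851 promoters of this length hold. At that share, finding none among 9 is the usual outcome. It says nothing on other sequences that FOXO factors may bind, CAAAACA included. CAAAACA was present in 6.28%, CACGTG in 7.15% and both in 0.408% of all promoters. These matches describe letters in a window and say nothing on binding.

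Corneal libraries held 10354125 to 14681223 counted reads, and conjunctival libraries 10726717 to 14433441. In the cornea, 38.7% to 45.2% of genes had no read in an AL library and 39.9% to 47.6% in a CR library. These shares were 33.6% to 37.9% in AL and 33.9% to 40.1% in CR conjunctiva. The 7 corneal epithelium markers, such as Krt12, summed to 496801 to 722288 normalized counts in corneal and 94442 to 146071 in conjunctival libraries, each tissue on its own scale. Of 11 fibroblast markers, the sums were 734 to 2655 in corneal libraries, against 31162 to 68607 in conjunctival ones. In the AL 1 corneal library, the summed lacrimal gland markers reached 30422 normalized counts, against 56.7 to 811 in the other corneal libraries. Among these markers, corneal Obp1a was 15.9 to 20439 in AL and 0 to 5.48 in CR, and Scgb2b24 was 6.19 to 8380 and 0 to 2.19. Corneal Car6 overlapped between the diets. In the conjunctiva, Obp1a was 17.7 to 42.0 in AL and 0 to 0.974 in CR. The source of this RNA was not tested.

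**Figure D1:**
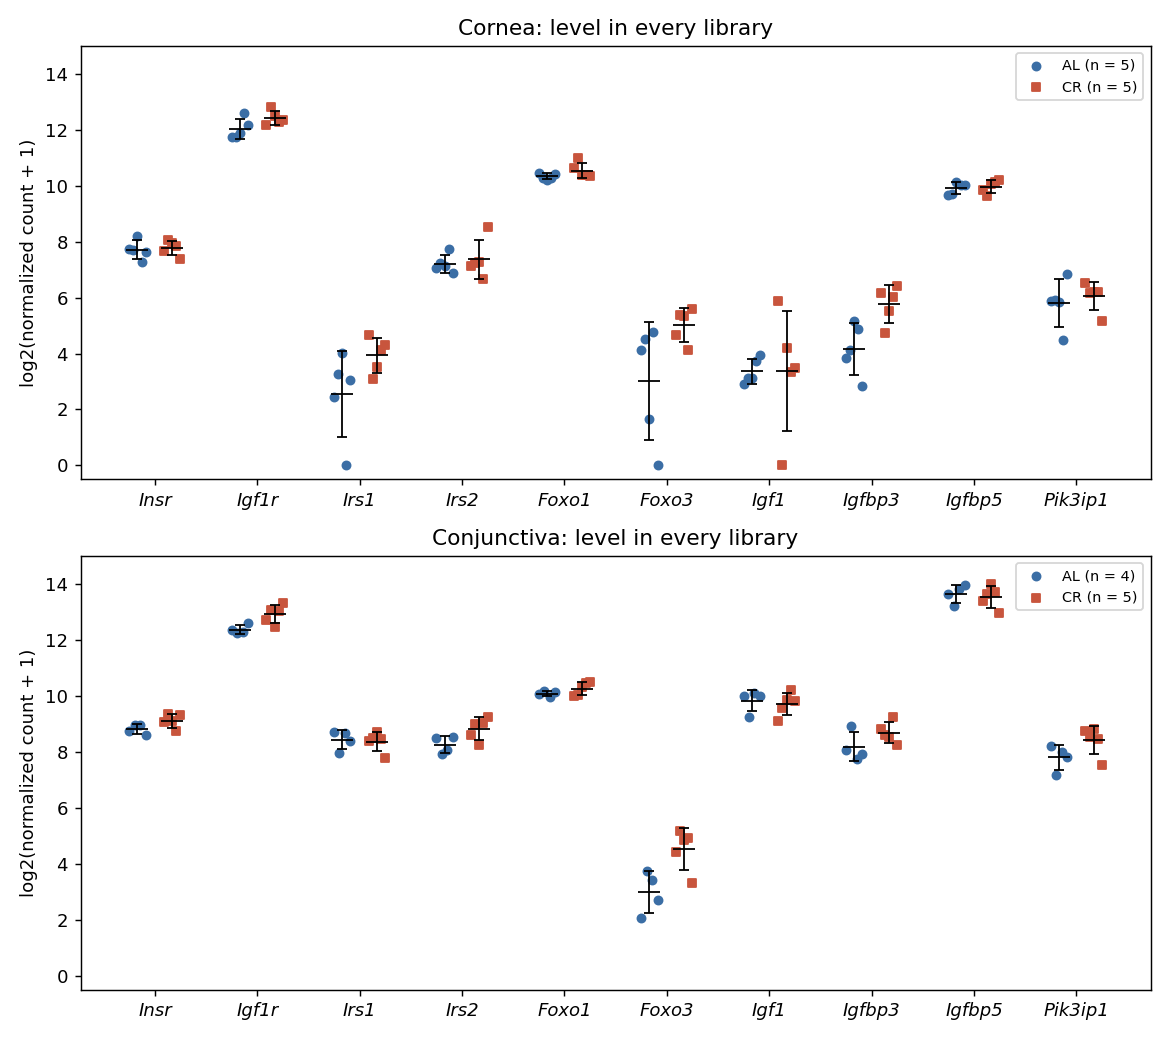
Level of each gene in every library, as log2(normalized count + 1), in the cornea (upper) and conjunctiva (lower), with AL as circles and CR as squares; black bars are the mean ± SD of 4 or 5 libraries per diet. The AL and CR libraries of each of the 10 genes overlap in both tissues, and 3 libraries lie at 0, 1 each for Irs1, Foxo3 and Igf1 in the cornea.

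CR changed none of the 10 genes past the threshold in either tissue. A gene was called when its Benjamini-Hochberg adjusted p from limma was under 0.05 and its fold change was over 1.5. By this rule 0 of 10 were called in the cornea, where 1.22% of all tested genes were, and 0 of 10 in the conjunctiva, where 0.359% were. At an unadjusted p under 0.05, limma gave 3 genes higher under CR in the cornea (Igf1r, Foxo3 and Igfbp3), against 8.52% of all genes higher and 9.55% lower. The same count in the conjunctiva was 4 (Igf1r, Irs2, Foxo3 and Pik3ip1), against 4.53% of all genes higher and 4.87% lower. None of the 10 was lower at that level in either tissue. With limma voom on the recovered reads, the calls were also 0 in both tissues, with 3 and 5 genes at an unadjusted p under 0.05.

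In the cornea, the estimated log2 change was above 0 for 10 of the 10 genes, where 46.9% of all tested genes were above 0, and the median of the 10 was 0.23 against -0.03 over all genes. In the conjunctiva it was above 0 for 7 of 10, where 48% of all genes were, and the median was 0.41 against -0.02. The AL and CR libraries did not separate fully for any of the 10 genes, whereas they did for 3.97% of all genes in the cornea and 3.87% in the conjunctiva. As these are bulk samples, fewer cells of a type and less RNA per cell cannot be told apart in any of the values.

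**Figure D2:**
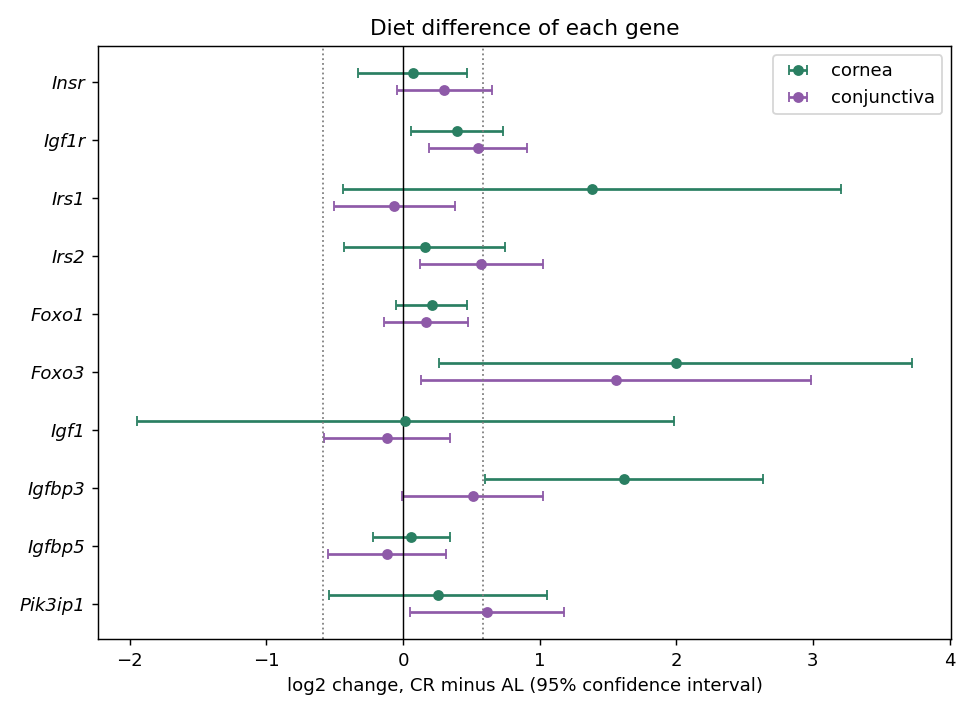
Log2 change of each gene under CR relative to AL, with the 95% confidence interval of limma, in the cornea (green) and conjunctiva (purple); dotted lines mark a 1.5-fold change in either direction. The intervals of Igf1r and Foxo3 lie above 0 in both tissues, that of Igfbp3 in the cornea and those of Irs2 and Pik3ip1 in the conjunctiva, although no adjusted p passed the threshold.

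Of the receptor genes, Igf1r had the larger estimate in both tissues. Igf1r, the receptor for IGF-1, had 3432, 3449, 3791, 6149 and 4590 normalized counts in the AL corneal libraries 1 to 5, and 4600, 7182, 5782, 5026 and 5197 in the CR libraries 1 to 4 and 7. All 5 CR libraries were above the median of AL, but AL 4 was higher than 4 of them. The means were 4282 ± 1144 (SD, n = 5) in AL and 5558 ± 1002 (SD, n = 5) in CR, a log2 change of 0.40 ± 0.16 (SE) with a 95% interval of 0.06 to 0.73 and a limma adjusted p of 0.207. Igf1r lies at chr7:67952257-68233668 of GRCm38.p6, with no other annotated gene over it.

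In the conjunctiva, Igf1r had 5255, 4829, 4980 and 6325 normalized counts in the AL libraries 1, 3, 4 and 5, and 6772, 8555, 5712, 8452 and 10200 in the CR libraries 1 to 5. CR 1, 2, 4 and 5 were above every AL library, and CR 3 was below AL 5. The mean was 5347 ± 675 (SD, n = 4) in AL and 7938 ± 1738 (SD, n = 5) in CR, a log2 change of 0.55 ± 0.17 (SE) with a 95% interval of 0.19 to 0.91, that did not pass the threshold (limma adjusted p = 0.243). Igf1r ranked 284th of 13929 genes by p in this tissue and 1418th of 12278 in the cornea. Leaving out CR 3 gave a log2 change of 0.66 and a limma adjusted p of 0.0468, past the threshold, and leaving out AL 4 in the cornea gave 0.54 and an adjusted p of 0.0222, at a fold under 1.5. Calls over all genes rose as well, from 50 to 127 without conjunctival CR 3 and from 150 to 536 without corneal AL 4.

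The Igf1r level followed the share of genes with no read in a library. This relation was examined after the values were seen, for each of the 10 genes in each tissue, which gave 20 relations. It was not computed over all genes, so the values do not tell whether the genes that follow the share are unusual. The libraries of both diets were pooled and permuted together. The share itself averaged 40.5% in AL and 44.4% in CR cornea, and 35.3% and 37.1% in the conjunctiva. The r and p values therefore do not tell a relation within a diet from the difference between the diets. In the 10 corneal libraries, Igf1r on the log2 scale and that share had a Pearson r of 0.87 (two-sided permutation p = 0.00147, adjusted 0.0118). Spearman's rho there was 0.89 (permutation p = 0.00123, adjusted 0.0203). In the conjunctiva, r was 0.89 (two-sided exact permutation p = 0.00176, adjusted 0.0118) and rho was 0.83 (exact permutation p = 0.00827, adjusted 0.0551) over 9 libraries. With the 2 libraries at the greatest distance from the median left out, r came to 0.94 (cornea) and 0.78 (conjunctiva). AL 4, the AL corneal library with the highest Igf1r, also had the highest share of unread genes in that group (45.2%), and CR 5 held the highest of both in the conjunctiva (40.1%). The corneal library with the highest share, CR 7 (47.6%), had 5197 normalized counts of Igf1r, below CR 2, CR 3 and AL 4. With the share as a covariate in limma, the log2 change of Igf1r under CR came to 0.07 for the cornea (adjusted p = 0.892) and to 0.33 for the conjunctiva (adjusted p = 0.390).

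**Figure D3:**
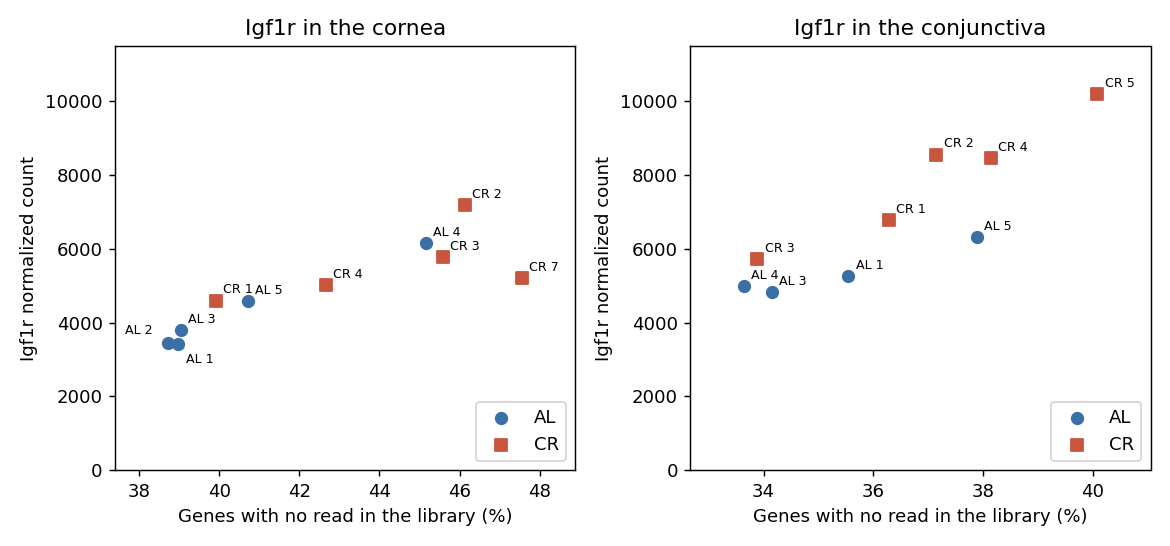
Normalized count of Igf1r against the percentage of genes with no read in the same library, in the cornea (left, n = 10) and conjunctiva (right, n = 9), with AL as circles and CR as squares. With the diets pooled, libraries with a larger share of unread genes tended to have more Igf1r in both tissues, with r of 0.87 and 0.89 on the log2 scale.

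Insr, the insulin receptor, had estimates nearer to 0. Its corneal range was 152 to 297 normalized counts in AL and 165 to 263 in CR, with means of 213 ± 52.5 (SD, n = 5) and 222 ± 38.2 (SD, n = 5) and a log2 change of 0.07 ± 0.19 (SE). The 95% interval, -0.33 to 0.47, corresponds to 0.795-fold to 1.38-fold (limma adjusted p = 0.877). In the conjunctiva, Insr had 429, 502, 501 and 384 normalized counts in AL 1, 3, 4 and 5, and 531, 659, 557, 427 and 639 in CR 1 to 5. CR 4 fell among the AL libraries and the other four CR libraries were above all of them. Its log2 change there was 0.30 ± 0.16 (SE), with a 95% interval of -0.05 to 0.65 (limma adjusted p = 0.595). The Insr locus, chr8:3150922-3279649 of GRCm38.p6, is overlapped by 2 annotated non-coding genes on the other strand, and since the use of strand in counting is not known, the reads of such pairs cannot be told apart.

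Among the docking proteins, Irs2 had an interval above 0 in the conjunctiva and Irs1 did not. Irs2 carries the insulin signal in liver and other tissues and is a known FOXO target. It had 361, 241, 269 and 370 normalized counts in conjunctival AL 1, 3, 4 and 5, and 389, 516, 302, 519 and 613 in CR 1 to 5. As for Igf1r, 4 of 5 CR libraries were above every AL library, and CR 3 was not. The means were 310 ± 64.7 (SD, n = 4) and 468 ± 122 (SD, n = 5), a log2 change of 0.57 ± 0.21 (SE) with a 95% interval of 0.12 to 1.02, which did not pass (limma adjusted p = 0.370). Irs2 in the conjunctiva also followed the share of unread genes, with r = 0.91 (two-sided exact permutation p = 0.00102, adjusted 0.0118) and rho = 0.90 (exact permutation p = 0.00203, adjusted 0.0203), and r = 0.83 with the 2 most distant libraries left out. With the share as a covariate, the log2 change of Irs2 was 0.29 (limma adjusted p = 0.652). No other of the 20 relations reached an adjusted permutation p under 0.05, and the portion of all genes that would reach it was not computed.

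In the cornea, Irs2 stood at 132, 151, 140, 210 and 116 normalized counts in AL 1 to 5 and at 140, 152, 152, 100 and 366 in CR 1 to 4 and 7. The CR 7 library was the highest and CR 4 the lowest of all 10, so the log2 change of 0.16 ± 0.28 (SE) had a 95% interval of -0.43 to 0.75 (limma adjusted p = 0.798). Its sign turned to -0.13 without CR 7.

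Irs1, the other docking protein, was near the limit of detection in the cornea. It had 0 to 15.3 normalized counts in AL and 7.54 to 24.1 in CR, or at most 22 reads in a library. The AL 4 library had no read, which allows up to 3 reads or 2.65 normalized counts, counting error only. The log2 change of 1.38 ± 0.87 (SE) had a 95% interval of -0.44 to 3.20 (limma adjusted p = 0.415). It was 0.74 without AL 4, 0.60 with a pseudocount of 10, 0.84 with array weights and 2.49 with the share of unread genes as a covariate. In the conjunctiva, Irs1 had 250 to 414 normalized counts in AL and 222 to 415 in CR, with means of 351 ± 77.7 (SD, n = 4) and 337 ± 71.0 (SD, n = 5). The log2 change was -0.06 ± 0.21 (SE), with a 95% interval of -0.50 to 0.38 (limma adjusted p = 0.950). Scaled to 1000000 counted reads per library, Irs1 had a median of 0.85 in the cornea and 27.8 in the conjunctiva, with no overlap between the tissues, while Irs2 had medians of 12.6 and 31.1 with overlapping ranges of 8.70 to 30.6 and 20.04 to 45.2. Annotated genes on the opposite strand overlap both Irs1 (chr1:82233105-82291439, Gm9747) and Irs2 (chr8:10984681-11008929, 9530052E02Rik) in GRCm38.p6.

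Of the FOXO factors, Foxo3 had the larger estimate and the fewer reads. In the cornea, Foxo3 had 16.5, 21.8, 2.18, 26.5 and 0 normalized counts in AL 1 to 5, and 24.1, 40.5, 39.4, 16.3 and 47.4 in CR 1 to 4 and 7. CR 2, 3 and 7 were above every AL library, while CR 4 was below 3 of them. AL 5 had no read, which allows up to 3.09 normalized counts. The means were 13.4 ± 11.8 (SD, n = 5) and 33.5 ± 12.8 (SD, n = 5), 2.50 times higher in CR, and the fitted log2 change of 1.995 ± 0.83 (SE) rests partly on the pseudocount of 1 given to the library at 0. It was 1.24 without AL 5 and 1.02 with a pseudocount of 10. Its 95% interval was 0.26 to 3.73 (limma adjusted p = 0.213).

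Conjunctival Foxo3 was as sparse, with 3.22, 12.3, 9.68 and 5.45 normalized counts in AL 1, 3, 4 and 5 and 20.5, 35.2, 28.0, 29.7 and 8.87 in CR 1 to 5. CR 1 to 4 were above every AL library and CR 5 was among them. The log2 change was 1.56 ± 0.67 (SE), with a 95% interval of 0.13 to 2.99 (limma adjusted p = 0.471), from 4 to 37 reads in a library, and a pseudocount of 10 gave 0.93. The Foxo3 gene lies at chr10:42181845-42276695 of GRCm38.p6, with no annotated gene over it. At this depth the size of the Foxo3 difference is known only within a wide range in either tissue.

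Foxo1, which is known as the FOXO factor that drives gluconeogenic genes in liver, was well covered, with 932 to 2145 reads per library. In the cornea, AL libraries spanned 1190 to 1408 normalized counts and CR libraries 1304 to 2021, of which CR 1 and CR 2 were above every AL library. The means of 1294 ± 96.1 and 1514 ± 304 (SD, n = 5 each) gave a log2 change of 0.21 ± 0.12 (SE) and a 95% interval of -0.05 to 0.47 (limma adjusted p = 0.387). In the conjunctiva, the ranges were 1003 to 1167 in AL and 1028 to 1436 in CR, and the log2 change was 0.17 ± 0.14 (SE) with a 95% interval of -0.14 to 0.47 (limma adjusted p = 0.765). Both upper bounds lie under a 1.5-fold change, being 1.39-fold in each tissue. The locus of Foxo1, chr3:52268337-52350109 of GRCm38.p6, is overlapped by 2 annotated genes, Gm20402 and Gm38034.

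Igfbp3, which encodes the main IGF carrier of serum, had the smallest p of the 10 genes in the cornea. It had 13.2, 16.4, 34.9, 28.3 and 6.18 normalized counts in AL 1 to 5 and 71.2, 25.4, 45.5, 64.4 and 85.4 in CR 1 to 4 and 7. All CR libraries but CR 2 were above every AL library. The means were 19.8 ± 11.6 (SD, n = 5) and 58.4 ± 23.4 (SD, n = 5), a log2 change of 1.61 ± 0.49 (SE) with a 95% interval of 0.60 to 2.63, and it did not pass (limma adjusted p = 0.102), ranking 435th of the 12278 genes by p. Without AL 4, the log2 change was 1.79 and the limma adjusted p was 0.0427, so that this gene would be called. Calls over all genes rose from 150 to 536 without that library. A library in this tissue held 6 to 92 Igfbp3 reads, and the gene lies at chr11:7206086-7215498 of GRCm38.p6 with no annotated gene over it. The summed fibroblast markers were 1185 to 2225 normalized counts in AL and 734 to 2655 in CR corneal libraries. CR 2 had the lowest sum and CR 7 the highest, and they were also the lowest and highest CR libraries for Igfbp3. AL 3 was the highest AL library for both. Other libraries did not match. AL 5 had the lowest Igfbp3 of all but a sum of 1731, above AL 1, 2 and 4. CR 3 had a sum of 1605, above CR 1 and CR 4, with less Igfbp3 than either. The part of fibroblasts in the Igfbp3 difference was not tested.

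In the conjunctiva, Igfbp3 had 269, 492, 216 and 245 normalized counts in AL 1, 3, 4 and 5, and 451, 392, 372, 601 and 303 in CR 1 to 5. Each CR library was above 3 of the AL libraries, but AL 3 was above all CR libraries except CR 4. The log2 change was 0.51 ± 0.24 (SE), with a 95% interval of -0.01 to 1.03 (limma adjusted p = 0.537). Igfbp3 was also the gene with the smallest p for a difference between the tissues in its response to diet. Its log2 change was 1.10 ± 0.54 (SE) higher in the cornea, with a 95% interval of -0.01 to 2.22. The adjusted p was 0.671, from a t test on the difference of the 2 limma estimates.

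The ligand Igf1 and the binding protein Igfbp5 showed no difference past the threshold in the conjunctiva, where both were well covered. In GRCm38.p6, Igf1 lies at chr10:87858265-87937047, overlapped by the antisense gene Igf1os, and Igfbp5 at chr1:72858065-72874865, with no annotated gene over it. Igf1 had 1014, 614, 1095 and 1014 normalized counts in AL 1, 3, 4 and 5, and 554, 751, 935, 1175 and 912 in CR 1 to 5. AL 3 stood below the other three AL libraries, among the CR libraries. The means were 934 ± 217 (SD, n = 4) and 865 ± 231 (SD, n = 5), with a log2 change of -0.12 ± 0.22 (SE) and a 95% interval of -0.58 to 0.34 (limma adjusted p = 0.907). Igfbp5 spanned 9606 to 16137 in AL and 7998 to 16460 in CR, with a log2 change of -0.12 ± 0.20 (SE) and a 95% interval of -0.55 to 0.31 (limma adjusted p = 0.899).

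Fibroblasts and macrophages are known to make Igf1 in many tissues. In the conjunctiva, all 11 fibroblast markers had a log2 change below 0, of which 2 were called lower, and their sums were 46583 to 68607 normalized counts in AL and 31162 to 60038 in CR. All 11 macrophage markers were likewise below 0, with none called and 6 at an unadjusted p under 0.05 in limma, and their sums were 3409 to 4489 in AL and 2330 to 3497 in CR. None of these markers was at 0 in all libraries. AL 3, the AL library lowest in Igf1, was also the AL library lowest in both sums. The CR libraries did not match in this way. CR 5 had the lowest of both sums (31162 and 2330) with 912 normalized counts of Igf1, and CR 1 had the lowest Igf1 (554). The part of these cells in the Igf1, Igfbp3 and Igfbp5 values was not tested.

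**Figure D4:**
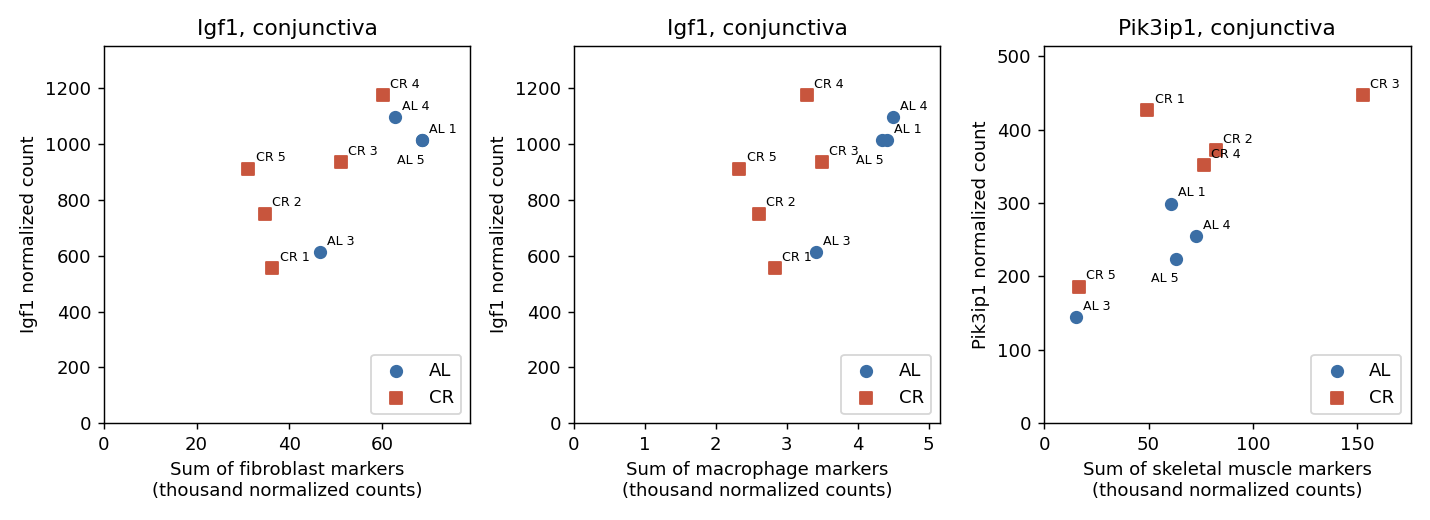
Conjunctival Igf1 against the summed fibroblast markers (left) and macrophage markers (middle), and Pik3ip1 against the summed skeletal muscle markers (right), in normalized counts for the 4 AL libraries (circles) and 5 CR libraries (squares). AL 3 was the lowest AL library for Igf1 (614) and for Pik3ip1 (145) and had the lowest AL sum of each marker list. Among the CR libraries, CR 5 had the lowest fibroblast and macrophage sums, but CR 1 had the lowest Igf1. CR 5 was also the lowest CR library for Pik3ip1 and muscle, but CR 1 had more Pik3ip1 than CR 4 at a lower muscle sum.

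In the cornea, Igf1 was close to the limit of detection, with 6.60 to 14.4 normalized counts in AL and 58.0, 0, 17.4, 9.20 and 10.2 in CR 1 to 4 and 7. CR 2 had no read, which allows up to 2.83 normalized counts, and CR 1 was the highest of all. The 95% interval of the log2 change ran from -1.95 to 1.98 (limma adjusted p = 0.995), so no difference was detectable at this depth. The sums of the 11 macrophage markers did not overlap in the cornea, at 448 to 578 normalized counts in AL and 314 to 381 in CR, and 7 of 7 tested were below 0 with 1, C1qa, called lower. Igfbp5 was better covered in this tissue, with 970 ± 136 normalized counts in AL and 1015 ± 160 in CR (SD, n = 5 each). Its log2 change of 0.06 ± 0.13 (SE) had a 95% interval of -0.22 to 0.34, or 0.859-fold to 1.27-fold (limma adjusted p = 0.842).

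Scaled to 1000000 counted reads, Igf1 had a median of 0.826 in the cornea and 81.0 in the conjunctiva, Igfbp3 of 2.76 and 31.4, and Igfbp5 of 89.7 and 1034, and for none of these 3 genes did the ranges of the tissues overlap. Pik3ip1 also had non-overlapping ranges, 1.83 to 9.95 (cornea) and 12.03 to 38.7 (conjunctiva), as did Insr, at 13.1 to 26.3 and 32.0 to 52.8. The ranges overlapped for Igf1r, with medians of 419 and 530, for Foxo1, with medians of 117 and 94.2, and for Foxo3, with medians of 1.99 and 1.03. These tissue levels are a description without a test, because the tables were scaled separately and the tissues were sampled differently.

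Pik3ip1 encodes a membrane protein that binds and inhibits the catalytic subunit of PI3K. It lies at chr11:3319241-3342971 of GRCm38.p6, overlapped on the other strand by Gm12592. In the conjunctiva it had 299, 145, 255 and 224 normalized counts in AL 1, 3, 4 and 5, and 427, 372, 447, 351 and 186 in CR 1 to 5. CR 1 to 4 were above every AL library, whereas CR 5 was below 3 of the 4. The means of 231 ± 65.0 (SD, n = 4) and 357 ± 103 (SD, n = 5) gave a log2 change of 0.61 ± 0.26 (SE), with a 95% interval of 0.05 to 1.18 (limma adjusted p = 0.475), and it was 0.41 without AL 3. The lowest library of each diet, AL 3 and CR 5, was also the one with the lowest skeletal muscle marker sum. These sums were 15269 and 16597 normalized counts, against 49506 to 152495 in the other libraries. CR 3 was the highest CR library for both Pik3ip1 and muscle. CR 1, at a muscle sum of 49506, had more Pik3ip1 than CR 4, at 76408. AL 3 and CR 5 also had the lowest fibroblast, macrophage and endothelial marker sums of their diets. Those were 46583, 3409 and 1600 in AL 3 and 31162, 2330 and 847 in CR 5. The part of muscle or of these other cells in the Pik3ip1 value was not tested.

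Corneal Pik3ip1 stood at 58.3, 59.0, 56.8, 21.2 and 115 normalized counts in AL 1 to 5 and at 90.9, 70.7, 72.7, 72.5 and 35.3 in CR 1 to 4 and 7. AL 5 was the highest library and AL 4 the lowest. The log2 change was 0.26 ± 0.38 (SE) with a 95% interval of -0.54 to 1.05 (limma adjusted p = 0.755), and without AL 4 it was -0.07. The 8 skeletal muscle markers summed to at most 93.1 normalized counts in a corneal library.

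For the comparison of the tissues, the log2 change in the conjunctiva was subtracted from that in the cornea for each gene. The difference was divided by its joint standard error and tested against a t distribution. None of the 10 genes differed at an adjusted p under 0.05 in this test, where 0.0168% of the 11929 genes tested in both tissues did. At an unadjusted p under 0.05, 0 of 10 differed, where 7.48% did. Among the best covered genes, the differences were -0.15 ± 0.23 (SE) for Igf1r, with a 95% interval of -0.63 to 0.32, and 0.04 ± 0.19 (SE) for Foxo1, with an interval of -0.35 to 0.43. For Irs1, Foxo3 and Igf1 the intervals were each more than 3 log2 units wide.

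The remaining genes of the pathway were read from 6 lists of 103 genes in all, which held the 10 genes above and 93 others. Of the 93, 69 were tested in the cornea and 83 in the conjunctiva. In the cornea 1 was called, higher under CR, against 1.22% of all tested genes, and 7 were higher and 7 lower at an unadjusted p under 0.05 in limma, against 8.52% and 9.55% of all genes. In the conjunctiva 0 were called, against 0.359%, with 4 higher and 4 lower at that level, against 4.53% and 4.87%. These counts are near the shares over all genes. Their median log2 change was 0.07 (cornea) and 0.06 (conjunctiva), against -0.03 and -0.02 over all tested genes.

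Ccng2, which encodes cyclin G2, a cell cycle inhibitor and a known FOXO target, was the gene called in the cornea. It rose from 398 ± 41.9 to 649 ± 151 normalized counts (SD, n = 5 each), a log2 change of 0.68 ± 0.16 (SE) with a limma adjusted p of 0.0386, and the AL libraries (361 to 465) did not overlap the CR libraries (475 to 786). The call was lost without any 1 of AL 1, 2, 3 and 5 or CR 3, 4 and 7, over which the log2 change was between 0.60 and 0.73, and also with the share of unread genes as a covariate (0.58, adjusted p = 0.167), without a filter, with limma voom and with a replicate block. Over its 20 alternatives the adjusted p ranged from 0.00818 to 0.210. In the conjunctiva, Ccng2 was 429 ± 126 (SD, n = 4) in AL and 446 ± 120 (SD, n = 5) in CR (limma adjusted p = 0.963).

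Ptpn1, the phosphatase PTP1B that removes phosphate from the insulin receptor, had the smallest p of the 103 genes in the cornea. Its libraries held 2283 to 3006 normalized counts in AL and 3616 to 4465 in CR and did not overlap. The log2 change of 0.54 ± 0.10 (SE) had a limma adjusted p of 0.0121, but as the fold was under 1.5 it was not called. Over all 20 alternatives for Ptpn1 in the cornea the log2 change was between 0.48 and 0.61, and the adjusted p ranged from 0.00178 to 0.0877. Conjunctival Ptpn1 was 2308 ± 337 (SD, n = 4) in AL and 3068 ± 431 (SD, n = 5) in CR, a log2 change of 0.41 ± 0.15 (SE) that did not pass (limma adjusted p = 0.352). Neither Ptpn1 nor Ccng2 is overlapped by another annotated gene.

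**Figure D5:**
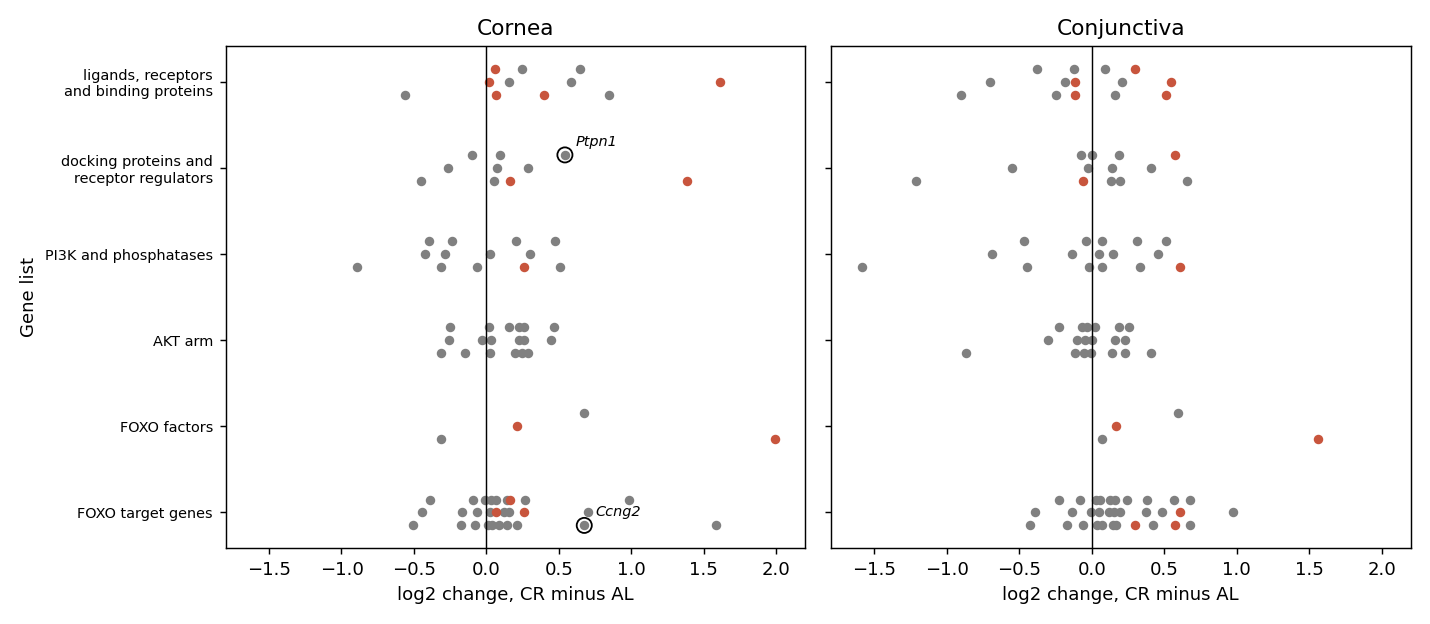
Log2 change under CR of every tested gene of the 6 pathway lists in the cornea (left) and conjunctiva (right); each point is a gene, the 10 followed genes are red, and circles mark an adjusted p under 0.05 in limma. Ptpn1 (0.54) and Ccng2 (0.68) in the cornea are the circled genes, and no gene is circled in the conjunctiva.

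Of the list of ligands, receptors and binding proteins, 11 of 20 were tested in the cornea and 14 in the conjunctiva, and none was called in either. Insulin itself was absent or nearly so, as Ins2 had no read in any library and Ins1 averaged at most 0.818 normalized counts, in the AL conjunctiva. Corneal Igfbp2 was 272 ± 71.3 in AL and 444 ± 183 in CR (limma adjusted p = 0.200), and conjunctival Igfbp6, an IGF-2 binding protein, was 526 ± 71.1 and 352 ± 178 (limma adjusted p = 0.464). Among docking proteins and receptor regulators, 10 of 15 were tested in the cornea and 13 in the conjunctiva, with 0 called. After Ptpn1, the adaptor gene Shc1 had the smallest p in the cornea, with 222 ± 41.2 and 267 ± 24.1 (limma adjusted p = 0.362), and Grb10 in the conjunctiva after Irs2, with 336 ± 101 and 240 ± 97.6 (limma adjusted p = 0.641).

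The PI3K subunits and phosphatases had 13 of 16 tested in the cornea, with 0 called. Pik3r3, a regulatory subunit, was 1387 ± 145 in AL and 1056 ± 139 in CR (limma adjusted p = 0.0938), and the catalytic subunit Pik3cb was 825 ± 79.5 and 666 ± 74.5 (limma adjusted p = 0.188). In the conjunctiva, all 16 were tested and 0 called. There Inpp4b, a lipid phosphatase, was 194 ± 72.6 and 256 ± 45.2 (limma adjusted p = 0.588).

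In the AKT arm, 18 of 19 genes were tested in the cornea and 19 in the conjunctiva, and none was called. Corneal Akt1 and Akt2 had estimates of opposite sign, with log2 changes of 0.26 ± 0.12 and -0.32 ± 0.15 (SE) and limma adjusted p of 0.281 and 0.267, and Gsk3a, a kinase that AKT inhibits, was at 0.28 ± 0.15 (limma adjusted p = 0.334). Mlst8, a subunit of the mTOR complexes, was 265 ± 57.9 in AL and 149 ± 47.6 in CR conjunctiva (limma adjusted p = 0.235). Pdpk1, the kinase PDK1, and Phlpp2, an AKT phosphatase, were at 0.26 ± 0.17 and 0.23 ± 0.17 there (limma adjusted p of 0.684 and 0.708).

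All 4 FOXO factors were tested in both tissues. Corneal Foxo4 was at -0.32 ± 0.18 (SE) on the log2 scale (limma adjusted p = 0.357), whereas conjunctival Foxo6 was at 0.60 ± 0.40 (limma adjusted p = 0.679). Of 35 known FOXO targets, 28 were tested in the cornea, with 4 higher and 2 lower at an unadjusted p under 0.05 in limma, against 8.52% and 9.55% of all genes. In the conjunctiva 32 were tested, with 5 higher and 2 lower, against 4.53% and 4.87%. The 5 include Irs2 and Pik3ip1, which were already counted among the 10 followed genes. The targets, which include Insr, Irs2 and Pik3ip1, had a median log2 change of 0.07 (cornea) and 0.15 (conjunctiva), against -0.03 and -0.02 over all genes. Besides Ccng2, the corneal targets with the smallest p had estimates of opposite sign and did not pass. Cdkn1b, the cell cycle inhibitor p27, was 3559 ± 232 in AL and 2589 ± 673 in CR (limma adjusted p = 0.130), while Bnip3, a mitophagy receptor, was 14.4 ± 11.7 and 36.7 ± 10.7 (limma adjusted p = 0.162). In the conjunctiva, Txnip was 9700 ± 1465 and 7350 ± 747 (limma adjusted p = 0.356), and Bcl6, a transcriptional repressor, was 633 ± 92.1 and 855 ± 175 (limma adjusted p = 0.415).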

How the data were processed

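Gene level tables for cornea and conjunctiva were deposited as log2 values. Per the methods of the study, the authors trimmed reads with cutadapt, aligned them with STAR to mm10, counted with HTSeq and normalized with DESeq2. The submitters' processing notes name GRCm39 instead, so no coordinate was taken from the files. The labels name a stranded TruSeq kit and the methods an oligo(dT)-primed kit, so the use of strand in counting is not given. Values equal log2(count/size factor + 1): all (100%) gave whole reads within 0.01 of a read.

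Each tissue was fitted separately on log2(normalized count + 1), pseudocount 1, with limma 3.58.1 (trend, robust; statmod 1.5.0) in R 4.3.3, diet as the factor. A gene was tested where its normalized counts averaged 10 or more, and 5 features with a repeated symbol were left out. The fold changes are on this scale, and those of low genes depend on the pseudocount. Calls needed a Benjamini-Hochberg adjusted p under 0.05 and a fold over 1.5. Tissues were compared by subtracting 1 log2 change from the other and dividing by the joint standard error (Satterthwaite degrees of freedom), ignoring any covariance from shared mice. Correlations used permutation tests over both diets together, with 100000 resamples, or all 362880 orders for 9 libraries (scipy 1.17.1). Floors for 0 reads (3 reads per library) cover counting error only.

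The genes and lists were chosen with earlier results of these data known. Named genes were the 10 genes, all called list genes, and the 3 with the smallest p per list and tissue. A gene that this rule names is not reported here. The alternatives were other pseudocounts, filters, scalings, limma voom, array weights, a replicate block, the share of unread genes as a covariate, and leaving out each library; those of Ptpn1 and Ccng2, and the correlations, were chosen after seeing the data. The fits were tested on simulated data. Promoters and positions are from RefSeq GRCm38.p6 and overlaps from its GENCODE annotation. Protein features were not analysed here.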

Additional observations from a re-analysis of the deposited data

Results flagged for a closer look

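Dixon's ratio was taken on log2(normalized count + 1) in 40 groups of 4 or 5 libraries (10 genes, 2 diets, 2 tissues). By this ratio 3 groups held a library far from the rest at the 95% level, and chance flags about 1 in 20 groups. The counts given below are not on the log2 scale, on which alone the ratios were taken. Pik3ip1 in the corneal CR 7 library was 35.3 normalized counts (38 reads) against 70.7 to 90.9 in the other four, a ratio of 0.732. Pik3ip1 in the conjunctival CR 5 library was 186 (168 reads) against 351 to 447, a ratio of 0.725. Igf1 in the conjunctival AL 3 library was 614 (547 reads) against 1014 to 1095, a ratio of 0.867. None of the 10 genes passed the test for a difference between the tissues in the response to diet.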

How the results depend on the processing

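The count of called genes among the 10 stayed at 0 in both tissues under all alternatives but 3. With array weights, 1 was called in the cornea (Igfbp3, log2 change 1.60, limma adjusted p = 0.0404), and leaving out single libraries gave 0 to 1 in each tissue: Igfbp3 in the cornea without AL 4, and Igf1r in the conjunctiva without CR 3 (0.66, adjusted p = 0.0468). Without AL 4, corneal Igf1r also had an adjusted p of 0.0222, at a fold under 1.5. Under the same settings the calls over all genes rose too. In the cornea they went from 150 to 705 with array weights and to 536 without AL 4, and in the conjunctiva from 50 to 127 without CR 3. Over their alternatives the adjusted p of Igfbp3 in the cornea ranged from 0.0404 to 0.409, and of Igf1r from 0.0222 to 0.892 (cornea) and 0.0468 to 0.508 (conjunctiva). Of the alternative values of the 10 genes, 360 kept sign and side of the threshold, 20 changed sign and 3 passed the threshold.

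The sign turned for corneal Igf1 with a pseudocount of 0.5 (-0.15), limma voom (-0.22) and array weights (-0.16), for corneal Irs2 with a replicate block (-0.21) and the share of unread genes as a covariate (-0.31), and with that covariate for corneal Igfbp5 (-0.0197), conjunctival Irs1 (0.0889) and conjunctival Ccng2 (-0.0273). The cause was not tested. Leaving out single libraries gave corneal log2 changes of -0.0437 to 0.196 for Insr, -0.13 to 0.34 for Irs2, -0.19 to 0.86 for Igf1 and -0.0734 to 0.52 for Pik3ip1, and conjunctival ones of -0.22 to 0.0798 for Irs1, -0.31 to 0.0306 for Igf1, -0.26 to 0.0275 for Igfbp5 and -0.10 to 0.23 for Ccng2. A filter at a mean of 50 left out Irs1, Foxo3, Igf1 and Igfbp3 in the cornea and Foxo3 in the conjunctiva, and Irs1 and Igf1 failed the filter without corneal CR 1.

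Over all genes, calls in the cornea were 150, against 46 with the block, 62 with the covariate, 99 with voom, 705 with array weights and 53 to 536 without single libraries. In the conjunctiva they were 50, against 10, 62, 48, 149 and 26 to 127. With the replicate number as a block, 0 of the 10 were called in either tissue, 2 had an unadjusted p under 0.05 in each, and the conjunctival log2 change of Ccng2 was -0.0588. Deviations of same-numbered AL and CR libraries gave r of -0.30 to 0.29 (cornea) and -0.06 to 0.05 (conjunctiva). Of the AL libraries, 1 of 4 and 0 of 4 correlated best with their own number. Same-titled libraries of the cornea and conjunctiva gave r of -0.42 to 0.14 (AL) and -0.22 to 0.12 (CR). Of these, 0 of 4 and 1 of 4 correlated best with their own title. With 4 pairs each, centred within small groups, these values cannot settle whether the numbers pair the samples.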
